A study of Mus musculus with 6 samples.

Results

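Interleukins and interleukin receptors were followed in sorted mouse hair follicle cells 3 days after skin was treated with a carcinogen. The genes were chosen by name: every probe on the array whose RefSeq accession leads to a mouse symbol starting with Il and a digit was taken, whatever its signal. This gave 99 probes for 82 genes, out of 21368 genes with a symbol on the array. They comprise 39 ligand genes, with the natural antagonists among them, 40 receptor genes and 3 others: Il18bp, which encodes a soluble inhibitor of IL-18, Il4i1, a secreted amino acid oxidase, and Il1bos, an RNA antisense to Il1b. Another 2 symbols of this kind in the annotation, Il11ra2 and Il4i1b, had no probe named here.

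The cells came from male mice carrying a keratin 15 promoter EGFP reporter. All were depilated, and the skin then received the vehicle, acetone, or 7,12-dimethylbenz[a]anthracene (DMBA), a polycyclic hydrocarbon that damages DNA once the skin has metabolised it. The sort took epidermal cells high for EGFP and for ITGA6 (integrin alpha 6) and negative for Sca1, which the labels call hair follicle stem cells and hair germ. Both groups thus share the reporter, the depilation and the gate, and neither strain nor age is given in the labels. Each group held 3 samples from different mice, with 1 array each, and the labels do not say whether a sample pooled several mice. The vehicle group therefore shows depilated skin under acetone, not resting skin, and the gate holds stem cells and hair germ together. All values below are log2 intensities relative to the 75th percentile of the same array. They allow a gene to be compared between arrays but not with another gene, since probes differ in brightness.

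Interleukins are secreted proteins through which leukocytes and epithelia signal to each other over short distances. Each acts through a receptor of several chains, some of which are shared: the common gamma chain serves IL-2, IL-4, IL-7, IL-9, IL-15 and IL-21, gp130 serves IL-6 and IL-11, and IL-1RAcP serves IL-1, IL-33 and the IL-36 group. Keratinocytes are a source of IL-1 and IL-36 cytokines and of IL-33 and IL-34, and they carry receptors for IL-1, IL-4 and IL-13, IL-17, IL-22 and the IL-20 group, while many other interleukins are known as products of lymphocytes and myeloid cells. In the IL-1 family the signal is held back by antagonists (Il1rn for IL-1, Il1f5 for IL-36) and by a decoy receptor that binds IL-1 without signalling (Il1r2).

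The share of all probes well above background was 77.0% to 83.6% in the vehicle group and 69.3% to 80.9% in the DMBA group, with the lowest shares for DMBA 2 and DMBA 3. The lowest value an array could give also differed, from -8.73 to -8.23 in vehicle and from -8.01 to -7.32 in DMBA, so a silent probe reads higher after DMBA. Vehicle 1 lay on its own slide, apart from the other 5 arrays. Of 10 sort and identity markers, all were tested, 5 were higher and 5 lower. In 3 the groups did not overlap, a pattern found in 10.0% of all genes tested. Vehicle and DMBA means were 5.81 ± 0.10 and 6.01 ± 0.42 (SD, n = 3 each) for Krt15, and 2.52 ± 0.14 and 2.33 ± 0.53 for Itga6. Ly6a, the gene of the Sca1 antigen excluded by the gate, lay at -1.22 ± 0.88 in vehicle and 0.23 ± 0.09 in DMBA, without overlap (adjusted p = 0.853). Lgr5 and Sox9, a receptor and a transcription factor of follicle stem cells, lay wholly lower after DMBA, by log2 fold changes of -0.64 (SE 0.22, adjusted p = 0.894) and -0.50 (SE 0.24, adjusted p = 0.967). The mean over the 5 measured of 7 fibroblast markers ran from -2.20 to -1.62 on the vehicle arrays and from -1.19 to -1.18 on the DMBA arrays. Of these 5, 4 had values above 0 and 1 below, from Dcn at 1.51 (SE 0.25, adjusted p = 0.445) to Col3a1 at -0.52 (SE 0.34), and Pdgfra was above background on no array. The summed signal of these fibroblast markers, as multiples of the 75th percentile, ran from 1.49 to 3.55 and from 3.13 to 4.11, and without the brightest, Col1a2, from 0.947 to 1.20 and from 1.75 to 2.05. The part of these in the values below was not tested. In a bulk sample, fewer cells of a type and less RNA per cell cannot be told apart.

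Of the 40 receptor genes, 35 (87.5%) had a probe detected on 3 or more of the 6 arrays, and 27 of the 39 ligand genes (69.2%) did. Over all genes with a symbol the share was 83.5%, and no difference between these shares was tested. Several classical inflammatory cytokine genes were not detected: Il6, Il10, Il12b, Il13, Il17a, Il5, Il20 and Il21 were well above background on no array, nor were the receptor genes Il2ra, Il7r, Il23r and Il1rapl2. Another 6 genes appeared on 1 or 2 arrays only. Of these Il1a, which encodes the IL-1 alpha that keratinocytes store, was above background on vehicle 1, the IL-12 subunit gene Il12a on vehicle 1, the IL-36 gene Il1f6 on vehicle 2 and Il27ra on vehicle 2. Il1f8, the IL-36 beta gene, was above background on vehicle 2 and DMBA 1, and Il18bp on vehicle 1 and DMBA 2. These 18 genes were not tested.

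**Figure D1:**
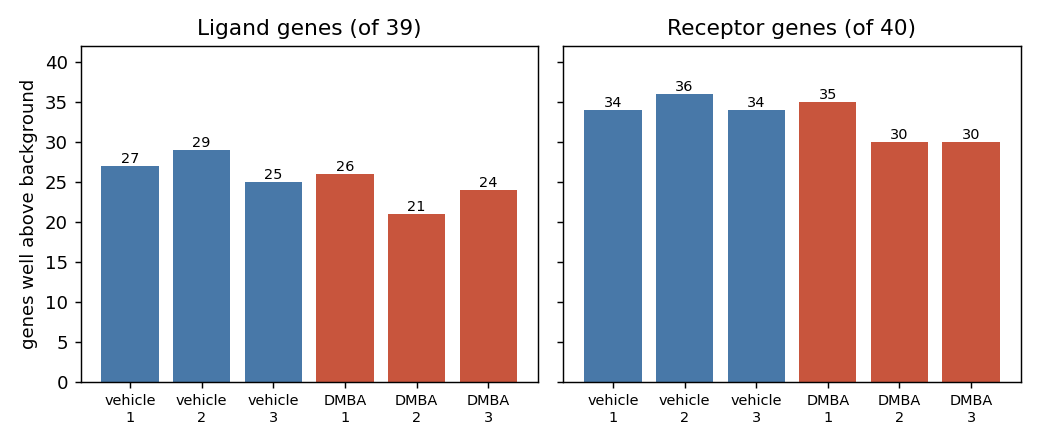
Number of interleukin ligand genes (left) and receptor genes (right) well above background on each array, with a gene counted when any of its probes was. Bars are single arrays, blue for vehicle and red for DMBA. Ligand genes ran from 21 to 29 an array and receptor genes from 30 to 36, lowest on DMBA 2, with DMBA 3 equal for receptors.

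On 2 of the 3 DMBA arrays fewer of the genes were detected than on any vehicle array. The 3 vehicle arrays held 64, 67 and 60 of the 82 genes above background and the 3 DMBA arrays 63, 53 and 55, so that DMBA 1 was like the vehicle arrays. In all, 16 genes (19.5%) were above background on more vehicle than DMBA arrays and 1 gene (1.22%) on more DMBA arrays, where the same shares over all 21368 genes were 13.9% and 2.71%. The share of all probes above background was lower on DMBA 2 and DMBA 3 as well, as given above. In the 12 genes above background on no array, 11 of 12 probes read higher after DMBA, by a median of 0.73. The lowest value an array could give was itself higher by 0.82 in the DMBA group, so these readings carry no direction.

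DMBA was compared with vehicle with limma over all 17834 genes that had a symbol and a probe above background on at least 3 arrays, 64 of them interleukin genes. No interleukin gene passed at an adjusted p of 0.05 (0 of 64; smallest adjusted p = 0.711, two-sided, Benjamini-Hochberg over all genes), nor did any other gene (0 of 17834, a background of 0%). At unadjusted p under 0.05, 3 interleukin genes were higher and 2 lower, 7.81% of the 64 where 5.23% of all genes tested were (2.74% higher, 2.50% lower). The 3 DMBA values lay wholly above or wholly below the 3 vehicle values in 7 genes, 4 higher and 3 lower, or 10.9%, against 10.0% of all genes (4.88% higher, 5.17% lower). Both shares are near the background, so neither is a result about interleukins. With 3 arrays against 3, an exact permutation test of a single gene could not go below p = 0.10.

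Neither class leaned one way. Among ligands 13 had a value above 0 and 14 below, with a median log2 fold change of -0.11, and among receptors 19 and 16, with a median of 0.09. Over all genes tested 48.7% lay above 0 and the median was -0.01. At unadjusted p under 0.05, 1 ligand gene was higher and 1 lower (7.41% of 27), and 2 receptor genes were higher and 1 lower (8.57% of 35). The share over all genes tested was 5.23%. Values of at least 1 in size were found in 12 of the 64 genes (18.8%), where 8.51% of all genes had one. The genes were also measured less precisely, with a median SE of 0.44 on the log2 scale against 0.35 over all genes, and how far that goes with the larger values was not tested. Among the 64, 35 had a value within 0.5 of 0.

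**Figure D2:**
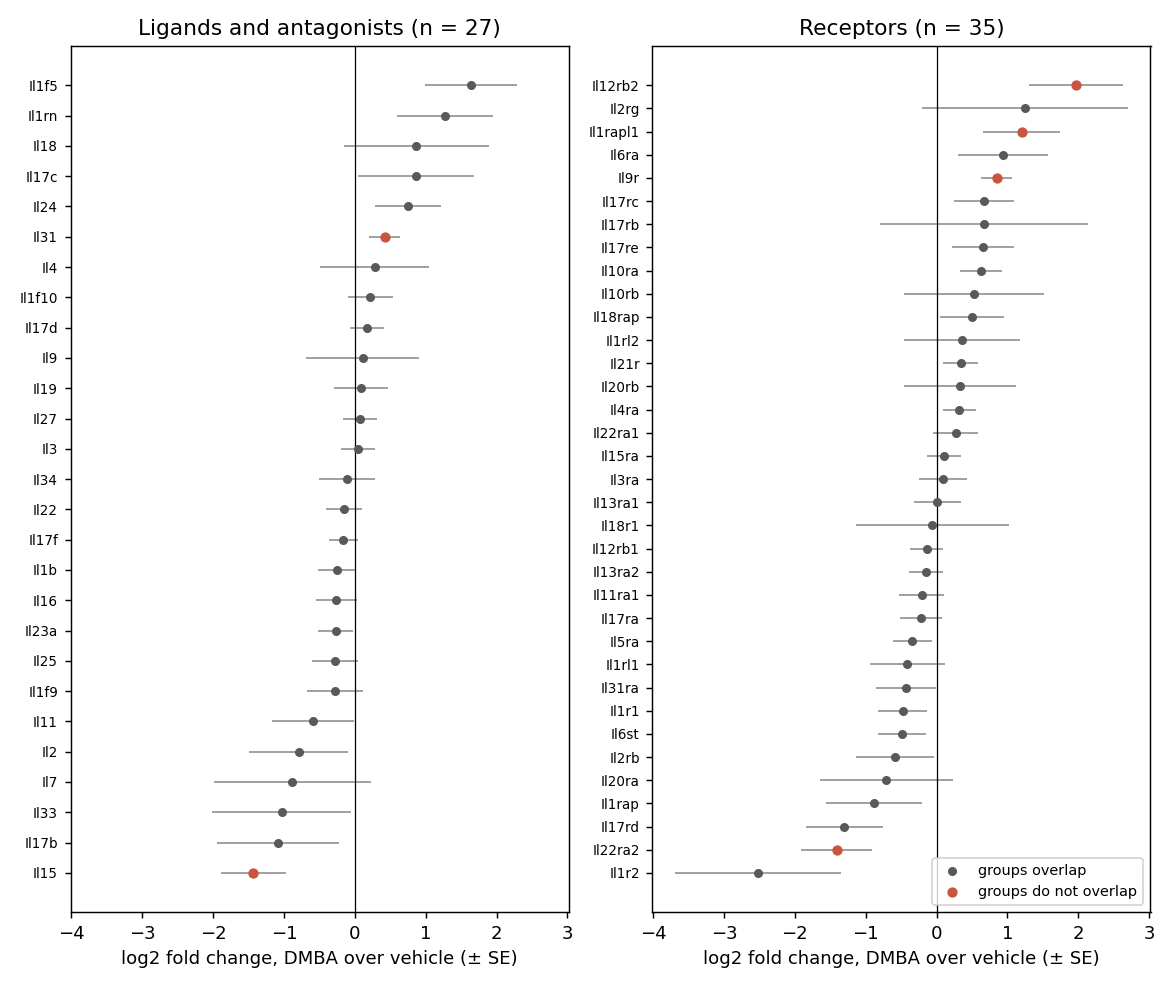
Log2 fold change of DMBA over vehicle with its SE for the 27 ligand genes (left) and the 35 receptor genes (right) tested with limma. Red marks genes whose groups do not overlap. Ligand values run from -1.43 to 1.64 and receptor values from -2.52 to 1.97, spread on both sides of 0.

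Among ligands of the IL-1 family the largest values belonged to the antagonists. Il1f5, which encodes the IL-36 receptor antagonist, lay at -4.34, -2.76 and -3.04 on vehicle 1 to 3 and at -1.47, -2.88 and -0.86 on DMBA 1 to 3. Of the DMBA arrays, 1 and 3 lay above all vehicle values, and DMBA 2 lay among them. The log2 fold change was 1.64 (SE 0.65, 3.12-fold higher, adjusted p = 0.941 in limma). Il1rn, the antagonist that blocks the IL-1 receptor, lay at -2.64, -0.63 and -3.26 in vehicle and at -0.99, -1.20 and -0.51 in DMBA. Vehicle 2 lay at the level of the DMBA arrays and the other vehicle arrays below all of them, so the groups overlapped (log2 fold change 1.27, SE 0.68, 2.41-fold higher, adjusted p = 0.985). Without vehicle 2 the value of Il1rn was 2.04, and without vehicle 3 it was 0.73. Of the agonists, Il1b, the secreted inflammatory form of IL-1, had means of -1.66 ± 0.13 and -1.92 ± 0.38 (SD, n = 3, vehicle first here and below). Its log2 fold change was -0.25 (SE 0.27). The IL-36 gamma gene Il1f9 had means of -3.22 ± 0.07 and -3.50 ± 0.72 (-0.28, SE 0.39). Not all agonists had such small values: Il33 (-1.03, SE 0.98) and Il18 (0.87, SE 1.02) came nearer to Il1rn in size. The antagonist-like Il1f10 had a value of only 0.22 (SE 0.32). The difference between antagonists and agonists was not tested.

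Il33 and Il18 varied widely between arrays of one group. Il33, an alarmin that epithelia release on injury, lay at -1.58, -3.25 and -4.77 in vehicle and at -2.98, -5.68 and -4.04 in DMBA, where it was above background on 2 arrays. Each group spanned more than the difference between the groups (-1.03, SE 0.98), which was -0.31 without DMBA 2 and -1.81 without vehicle 3. Il18, whose protein caspase-1 activates as it does IL-1 beta, had a value of 0.87 (SE 1.02), and Il1f10, which encodes the antagonist-like IL-38, 0.22 (SE 0.32). Il1bos lay at -2.53, -2.88 and -7.15 in vehicle and at -3.68, -7.12 and -5.91 in DMBA (-1.39, SE 1.44). The groups overlapped, with vehicle 3 as low as DMBA 2. Il1bos was above background on 2 vehicle arrays and 1 DMBA array. The labels do not say whether labelling kept the strand, so signal of Il1bos and of any transcript it overlaps cannot be told apart.

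On the receptor side of the family, Il1r2 had the value furthest from 0 in the fit reported, but it rested on arrays where the probe was not well above background. This decoy receptor lay at -2.86, -0.65 and -1.46 on vehicle 1 to 3 and at -1.58, -5.53 and -5.42 on DMBA 1 to 3. It was above background on all 3 vehicle arrays and on DMBA 1, which lay among the vehicle values, while DMBA 2 and DMBA 3 were not well above background. The log2 fold change was -2.52 (SE 1.17, 95% confidence interval -5.35 to 0.31, adjusted p = 0.967). Without DMBA 1 it was -3.82, and without DMBA 2 it was -1.85. It shrank to -1.61 with normexp background correction and to -0.97 with the share of probes above background as covariate, values smaller in size than those of Il12rb2 under the same settings (1.86 and 1.78). With most DMBA readings not well above background, the size for Il1r2 is not resolved. Il1r1, the signalling receptor, lay at -0.55 ± 0.37 and -1.03 ± 0.47 (-0.48, SE 0.34), and its partner chain Il1rap at -4.82 ± 0.67 and -5.70 ± 1.23 (-0.88, SE 0.68). Il1rapl1, a relative of IL-1RAcP known from synapses, lay at -5.24, -4.60 and -4.53 in vehicle and at -2.48, -3.79 and -4.50 in DMBA. All DMBA values lay above all vehicle values, DMBA 3 only barely, with a log2 fold change of 1.20 (SE 0.54) that was 0.65 without DMBA 1. On its other probe, above background on 1 vehicle array, the difference was -0.61. The IL-36 receptor gene Il1rl2 had a log2 fold change of 0.36 (SE 0.82) and the IL-33 receptor gene Il1rl1 one of -0.41 (SE 0.53). The IL-18 receptor genes Il18r1 and Il18rap stood at -0.06 (SE 1.08) and 0.50 (SE 0.45). Il1rl1 was above background on 3 vehicle arrays and 1 DMBA array, Il18rap on 2 and 1, and Il18r1 on 3 and 2. The second probe of Il18r1 gave 1.09.

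**Figure D3:**
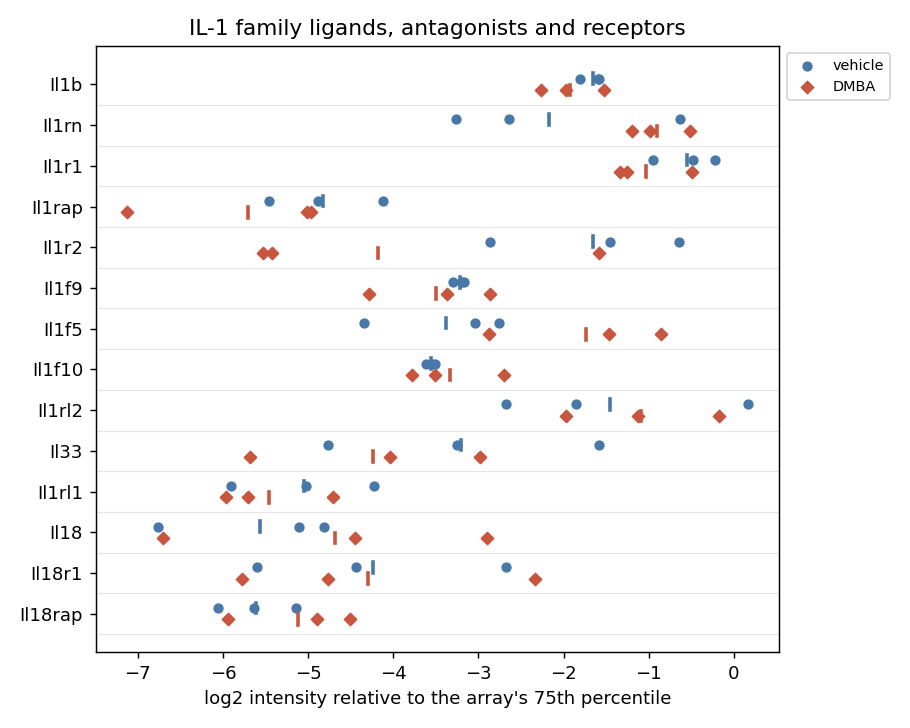
Log2 intensity, scaled to each array's 75th percentile, for 14 IL-1 family genes, ordered from IL-1 through IL-36 and IL-33 to IL-18. Blue circles are the 3 vehicle arrays, red diamonds the 3 DMBA arrays and vertical strokes the group means. Il1rn and Il1f5 have higher DMBA means and Il1r2 a lower one, with 1 array of the other group's level in each case.

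Among the receptors of the common gamma chain cytokines, Il9r stood first by p in the whole set. This receptor of IL-9, a T cell cytokine that also acts on mast cells, lay at -2.61, -2.83 and -2.87 in vehicle and at -2.07, -1.92 and -1.79 in DMBA. The groups did not overlap and each was tight, with a log2 fold change of 0.85 (SE 0.22, 95% confidence interval 0.33 to 1.37, unadjusted p = 0.00700, adjusted p = 0.711). Its second probe, above background on all 6 arrays, lay at -3.89, -4.21 and -4.48 in vehicle and at -4.20, -4.53 and -3.99 in DMBA, a difference of -0.05. The probes of Il9r therefore disagreed, and with their mean as the gene's value the log2 fold change was 0.40. Il2rg, the common gamma chain itself, lay at -6.19, -4.12 and -2.17 in vehicle and at -0.66, -2.64 and -5.42 in DMBA and was above background on 2 arrays of each group. The groups overlapped over most of their range (1.25, SE 1.45). Il4ra, the chain shared by IL-4 and IL-13, lay at 1.34 ± 0.05 and 1.66 ± 0.25 (0.32, SE 0.23), with 0.57 on its second probe. Il15ra, which presents IL-15 to neighbouring cells, lay at 5.29 ± 0.04 and 5.39 ± 0.30. The IL-13 receptor genes Il13ra1 and Il13ra2 had log2 fold changes of 0.01 (SE 0.33) and -0.15 (SE 0.24). Il21r and Il2rb had values of 0.34 (SE 0.25) and -0.58 (SE 0.55).

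The ligand of this group with the smallest p was Il15, a survival factor of lymphocytes that epithelia make. It lay at -4.75, -4.91 and -5.58 in vehicle, above background on all 3 arrays, and at -5.69, -6.54 and -7.30 in DMBA, above background on none. All DMBA values lay below all vehicle values, with measured means of -5.08 and -6.51 (log2 fold change -1.43, SE 0.46, unadjusted p = 0.0203, adjusted p = 0.869). The lowest signal above background was itself higher on the DMBA arrays (-5.67 to -4.97) than on the vehicle arrays (-6.39 to -5.90). Since the DMBA arrays give only a bound, the difference is stated as that bound, 1.22-fold lower, which is not a confidence limit. The bound sets the vehicle mean against the lowest signal still above background on each DMBA array, or the probe's own signal where that was higher, and leaves out the spread between arrays. With another background correction, normexp on the median spot signal, the value of Il15 shrank to -0.18, and with the covariate named above to -0.79. Il7, a keratinocyte product that keeps skin T cells alive, had a value of -0.88 (SE 1.11), Il2 -0.79 (SE 0.70), Il4 0.28 (SE 0.77) and Il9 0.11 (SE 0.80). None of these was above background on all 6 arrays. Il7 was on 3 vehicle and 2 DMBA arrays, Il2 on 2 and 1, Il4 on 3 and 1 and Il9 on 2 and 2. Il4i1 lay at -0.49, 0.59 and -0.40 in vehicle and at -0.74, -0.62 and -1.38 in DMBA, wholly below vehicle (-0.82, SE 0.39, adjusted p = 0.967; -0.47 without vehicle 2).

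In the IL-6 and IL-12 families Il12rb2 had the largest positive value of the 64 genes in the fit reported. This signalling chain of the IL-12 receptor, best known from T helper and natural killer cells, lay at -2.28, 0.20 and -1.77 in vehicle and at 0.36, 1.17 and 0.53 in DMBA. All DMBA values lay above all vehicle values, although vehicle 2 came close to DMBA 1. The log2 fold change was 1.97 (SE 0.66, 3.90-fold higher, unadjusted p = 0.0237, adjusted p = 0.888). On its second probe the values were -4.35, -1.07 and -2.31 in vehicle and -1.59, -2.25 and -1.68 in DMBA, a difference of 0.74 with overlapping groups. With the mean of both probes as the gene's value the log2 fold change was 1.35, below that of Il1f5, and without vehicle 2 it was 2.71. The other chain, Il12rb1, lay at -3.34 ± 0.18 and -3.48 ± 0.22, and its second probe was above background on 1 DMBA array only. The gp130 gene Il6st had a value of -0.49 (SE 0.34), its partner Il6ra 0.94 (SE 0.63) and the IL-11 receptor gene Il11ra1 -0.21 (SE 0.32). Il11ra1 has near-identical copies in the mouse genome that its probe may not tell apart. Of the ligands, Il31, the itch cytokine, lay at -2.86, -2.90 and -2.80 in vehicle and at -2.36, -2.28 and -2.66 in DMBA. The groups did not overlap, but the difference was small (0.42, SE 0.22, 1.34-fold higher, adjusted p = 0.985). Its receptor gene Il31ra had a value of -0.43 (SE 0.42; -0.99 on its second probe), and Il11 and Il27 had values of -0.59 (SE 0.58) and 0.07 (SE 0.24). Il23a, a subunit of IL-23, had a value of -0.27 (SE 0.25).

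**Figure D4:**
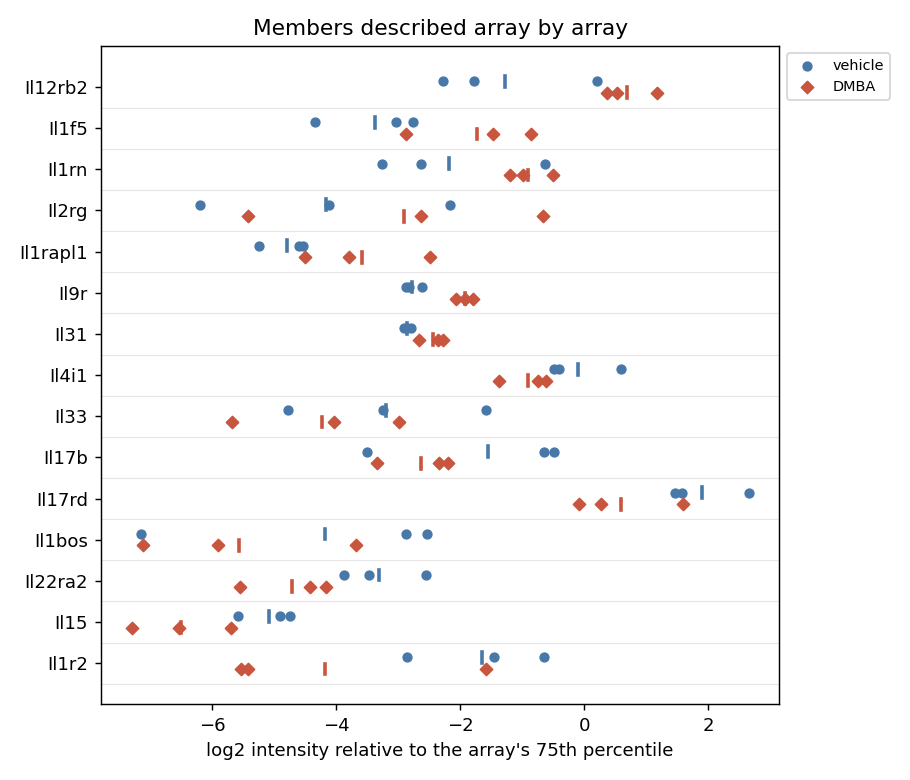
Log2 intensity, scaled to each array's 75th percentile, for the 15 genes described array by array, ordered by log2 fold change. Blue circles are vehicle arrays, red diamonds DMBA arrays and vertical strokes group means. In 7 of the 15 genes the colours do not overlap. In Il1r2, Il1bos and Il17b a single array lies far from the rest of its group, and Il2rg and Il33 are spread widely in both groups.

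The stretch before the transcription start is shown for 4 genes, chosen after their values were seen: Il12rb2 and Il1r2, at the ends of the range in the fit reported, Il9r, with the smallest p, and Il1rn, the antagonist of the same IL-1 pathway. Each is the 250 bases before the most upstream RefSeq start on GRCm38.p6, read along the gene's strand. Capitals mark GCGTG, the core that the aryl hydrocarbon receptor (AHR, which polycyclic hydrocarbons bind) recognises, TGANTCA, the AP-1 motif, and TTCNNNGAA, the motif of STAT factors, on either strand.
Il12rb2, chr6:67376189-67376438, minus strand: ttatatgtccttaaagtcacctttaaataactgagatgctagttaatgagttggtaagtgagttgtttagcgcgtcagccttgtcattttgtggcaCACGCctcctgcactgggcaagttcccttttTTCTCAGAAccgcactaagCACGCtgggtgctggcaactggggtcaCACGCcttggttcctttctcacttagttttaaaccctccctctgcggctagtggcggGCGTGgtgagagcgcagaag
Il9r, chr11:32200280-32200529, minus strand: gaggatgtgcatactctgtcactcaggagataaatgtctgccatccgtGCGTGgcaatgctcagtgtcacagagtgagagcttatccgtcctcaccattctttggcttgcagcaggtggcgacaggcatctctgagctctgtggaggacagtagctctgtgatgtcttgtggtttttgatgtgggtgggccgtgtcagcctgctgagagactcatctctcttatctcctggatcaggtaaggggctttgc
Il1rn, chr2:24336610-24336859, plus strand: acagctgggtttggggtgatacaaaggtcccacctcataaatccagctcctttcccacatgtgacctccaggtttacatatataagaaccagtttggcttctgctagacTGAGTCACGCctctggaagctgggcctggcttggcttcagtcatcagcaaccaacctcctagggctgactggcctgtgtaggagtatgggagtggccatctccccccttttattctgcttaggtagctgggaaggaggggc
Il1r2, chr1:40085843-40086092, plus strand: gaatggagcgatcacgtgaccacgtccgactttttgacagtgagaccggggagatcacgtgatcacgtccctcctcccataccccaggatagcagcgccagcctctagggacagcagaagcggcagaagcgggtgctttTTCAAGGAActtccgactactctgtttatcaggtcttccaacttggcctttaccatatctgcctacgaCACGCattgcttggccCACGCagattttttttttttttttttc

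Il12rb2 held 4 matches to the AHR core and 1 STAT match, Il9r 1 AHR core, and Il1r2 2 AHR cores and 1 STAT match. In Il1rn an AP-1 match and an AHR core overlapped, starting 141 and 136 bases before the start. Of the interleukin genes, 65 had such a window, 80 windows in all, and 22.5% of these held an AHR core against 28.2% of all 32851 windows. An AP-1 match was found in 17.5% against 6.75%, and a STAT match in 11.2% against 7.02%. These are matches of letters, not measured binding, and no difference between the shares was tested.

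In the IL-10 family 6 of 6 receptor genes and 3 of 5 ligand genes were tested. Il22ra2, which encodes the soluble protein that captures IL-22, lay at -3.47, -2.56 and -3.88 in vehicle and at -4.42, -4.17 and -5.55 in DMBA, where it was above background on 2 arrays. All DMBA values lay below all vehicle values (log2 fold change -1.41, SE 0.50, unadjusted p = 0.0290, adjusted p = 0.896). With 1 DMBA array not above background the size is uncertain, and with normexp it was -0.79. The signalling chain of the IL-22 receptor, Il22ra1, lay at -1.14 ± 0.08 and -0.87 ± 0.56 (0.27, SE 0.32). Through Il20rb, Il20ra and Il10rb keratinocytes answer IL-19, IL-20, IL-22 and IL-24; their log2 fold changes were 0.33 (SE 0.79), -0.71 (SE 0.94) and 0.53 (SE 0.99). Il10ra, the IL-10 binding chain, stood at 0.63 (SE 0.30). The scatter within groups was large here, as for Il20rb, which read -1.51, 1.27 and -0.35 on the vehicle arrays alone. Of the ligands, Il24, which wounded epidermis makes, lay at 0.07 ± 0.67 and 0.82 ± 0.65 (0.75, SE 0.47), and Il22 and Il19 had values of -0.15 (SE 0.25) and 0.09 (SE 0.38). Some mouse strains carry a near-identical copy of Il22 that its probe may not tell apart.

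In the IL-17 family all 5 receptor genes were measured. Il17rd, which encodes a brake on FGF signalling besides its part in IL-17 signalling, lay at 1.47, 1.58 and 2.65 in vehicle and at 0.27, -0.08 and 1.59 in DMBA. DMBA 3 lay just above vehicle 1 and vehicle 2, so the groups overlapped (log2 fold change -1.30, SE 0.54, 2.47-fold lower, adjusted p = 0.953). Il17ra and Il17rc, the receptor chains of IL-17A, stood at -0.22 (SE 0.30) and 0.67 (SE 0.43), and Il17re, the receptor of the epithelial IL-17C, 0.66 (SE 0.44). Il17rb read from -7.14 to -1.48 on the DMBA arrays alone (0.67, SE 1.47). Of the ligands, Il17b lay at -3.51, -0.49 and -0.65 in vehicle and at -3.34, -2.19 and -2.35 in DMBA. Vehicle 1 lay at the level of DMBA 1, and without vehicle 1 the value moved from -1.08 (SE 0.86) to -2.06. Il17c, which keratinocytes make against microbes, had a value of 0.86 (SE 0.82), with DMBA 1 at -1.21 and all other arrays between -4.52 and -3.31. Il17d, Il17f and Il25 had values of 0.17 (SE 0.24), -0.16 (SE 0.21) and -0.28 (SE 0.33).

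Of the remaining genes, Il34, the keratinocyte ligand of the CSF1 receptor that maintains Langerhans cells, lay at 0.63 ± 0.65 and 0.52 ± 0.39 (-0.11, SE 0.40). Il16, a chemoattractant of CD4 cells cut from a larger precursor, had a value of -0.26 (SE 0.29). Il3ra and Il5ra, which signal with the common beta chain, stood at 0.09 (SE 0.34) and -0.34 (SE 0.27). The T cell cytokine gene Il3 lay at -3.44 ± 0.21 and -3.40 ± 0.21.

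Several cytokines known as products of lymphocytes read above background on all 6 arrays with little scatter, among them Il3, Il17f (-3.15 ± 0.14 in vehicle and -3.31 ± 0.04 in DMBA), Il31 and Il22 (-0.91 ± 0.21 and -1.06 ± 0.27). Leukocyte markers were read beside them. Of 23 listed, 22 had a named probe and 17 were tested, 9 higher and 8 lower, with a median of 0.02 and none at unadjusted p under 0.05 (0 of 17). Their summed signal, as multiples of the 75th percentile, ran from 97.9 to 122 in vehicle and from 94.6 to 150 in DMBA. Itgam alone gave most of that sum, and without it the other 16 markers summed to 8.75 to 14.5 in vehicle and 9.87 to 11.3 in DMBA. The B cell marker Ms4a1 was above background on no array, Cd3e lay at -0.87 ± 0.22 and -0.69 ± 0.39, and the pan-leukocyte Ptprc at -1.51 ± 0.04 and -1.60 ± 0.29. Laptm5, a lysosomal protein of blood cells, lay at -4.75, -5.05 and -4.92 in vehicle and at -5.21, -2.04 and -0.65 in DMBA (log2 fold change 2.27, adjusted p = 0.967), with DMBA 2 and DMBA 3 above all vehicle arrays. In 1 of the 17 markers, Nkg7, the groups did not overlap, where 10.0% of all genes tested had groups apart. Nkg7 was higher after DMBA, with a log2 fold change of 0.48 (SE 0.24, adjusted p = 0.978). Cd8a and Tyrobp, next by p, had values of -0.42 (SE 0.29) and 0.81 (SE 0.75). Whether leukocytes or other transcripts gave these signals was not tested.

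The genes through which the receptors signal were described for comparison. Of 28 transducers, all tested, 13 had values above 0 and 15 below, with a median of -0.03. At unadjusted p under 0.05, 0 of the 28 were higher and 1 lower, where 2.74% and 2.50% of all genes tested were. The lower one was Stat5a, which carries signals of IL-2, IL-7 and IL-15 receptors among others. It lay at -1.74 ± 0.37 in vehicle and -2.75 ± 0.63 in DMBA (-1.01, SE 0.39, adjusted p = 0.941). Tyk2, the kinase bound to IL-12 receptors, stood at 0.99 (SE 0.49), Socs3, the feedback inhibitor of gp130, at 1.07 (SE 0.61), and Nfkbiz, an NF-kB cofactor that IL-1 and IL-17 induce, at -0.93 (SE 0.56). Stat3 itself had a value of 0.00 (SE 0.24). Of 19 partner ligands and receptors without an Il symbol, 18 were tested, 9 above and 9 below 0. Of these 18, only Csf1, which shares its receptor with IL-34, had an unadjusted p under 0.05, against 5.23% of all genes tested (1.48, SE 0.58, adjusted p = 0.941). Lif, Lifr and Csf2 had values of 1.13 (SE 0.81), -0.79 (SE 0.51) and -0.30 (SE 0.25). Of 13 enzymes and sensors that process IL-1 family cytokines, 11 were tested, 7 above and 4 below 0, and none at unadjusted p under 0.05 (0 of 11). The inflammasome adaptor Pycard stood at 0.46 (SE 0.32), the pore protein gene Gsdmd at 0.65 (SE 0.46), and the protease genes Elane and Ctsg at 0.28 (SE 0.24) and -0.29 (SE 0.27).

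Vehicle 1 was the only array on its slide, so a fit with slide as a block rests on the other 5 arrays. There the log2 fold change was 0.93 for Il9r, 1.47 for Il12rb2, 1.04 for Il1rn, 1.16 for Il1f5, 0.98 for Il1rapl1 and 0.42 for Il31. It was -1.27 for Il15, -1.49 for Il22ra2, -3.12 for Il1r2, -1.52 for Il17rd and -1.01 for Il4i1. The largest shifts were to 0.24 for Il2rg, -0.22 for Il33, -0.56 for Il1bos and -2.06 for Il17b. None of the 15 changed direction, and with slide as a block the counts at unadjusted p under 0.05 went from 1 to 0 for ligands higher, from 2 to 1 for receptors higher and from 1 to 0 for receptors lower. Single arrays also set the extremes of many genes. DMBA 1 gave the highest reading in 19 of the 64 genes (29.7%, against 29.4% of all genes tested), and DMBA 2 the lowest in 18 (28.1%, against 20.1%). Vehicle 2 gave the highest reading in 14 genes (21.9%, against 12.3%) and the lowest in 7.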

How the data were processed

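Arrays of 6 samples were compared, 3 per treatment. The labels name the RNeasy Micro Kit for RNA and Exo-Klenow labelling of cDNA with Cy3. The authors deposited scanner files from Agilent Feature Extraction 10.7.1.1 (per the submitters' processing notes), whose spot intensity is background-subtracted and whose 0 or 1 flags, another kind of value, mark spots above background, saturated or outlying (per the file headers). The headers name mm9 for probe annotation. The deposited series matrix holds a linear intensity with a 75th percentile near 1 on every array. It served as an alternative.

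Values were log2 processed intensity minus the array's log2 75th percentile, in R 4.3.3 with limma 3.58.1 (lmFit and eBayes, two-sided, Benjamini-Hochberg). The 3671 control spots were left out, outlier spots were set missing (45 probe values), spots of a probe were averaged and no value was saturated. Probes were named through RefSeq accessions with GRCm38.p6, used for names and for promoter sequence (28331 of 55681 probes). A gene was represented by its brightest kept probe, and 16 of the interleukin genes had several probes. The number of arrays limits precision. Described array by array were tested genes with groups apart, unadjusted p under 0.05 or a log2 fold change of at least 1 in size. Tested genes detected on all arrays of 1 group and on none of the other were described so as well. Of other lists, up to 4 genes of smallest p were named, and a few others, such as Stat3 and Cd3e, after their values were seen. The genes and lists were chosen with earlier results of these data known. The fit was tested on simulated data. Alternatives were other background corrections, scalings, filters and probe rules, blocks, a covariate and leaving out each array. The files hold no mean spot signal, so the normexp alternative used the median spot signal.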

Additional observations from a re-analysis of the deposited data

How the results depend on the processing

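With 3 arrays a group, counts at unadjusted p under 0.05 moved easily, while no interleukin gene passed the adjusted threshold under any of the 15 alternatives tried. Among these, slide as a block and leaving out vehicle 1 gave the same values, so they are the same check. Over all genes 0 passed in either direction, except that leaving out each array in turn gave 0 to 1 higher, the 1 being Apln without vehicle 2. Of the 15 genes described array by array, 13 kept their direction under each alternative that measured them. With the share of probes above background as covariate the others turned, to 1.29 for Il1bos and 0.74 for Il33, and the cause was not tested. That covariate also gave a ligand median of 0.24 (reported as -0.11), 0 ligands lower and 0 receptors lower. Without the filter on dim probes (82 genes tested) the ligand median was 0.11, 5 ligands and 4 receptors were higher, and over all genes 1259 were higher at unadjusted p under 0.05 instead of 488; without DMBA 1, 728 were lower instead of 445, and with the covariate 756 were higher. Ligands at unadjusted p under 0.05 (reported as 1 higher and 1 lower) were 0 higher with quantile normalization, slide as a block or the replicate block, and 0 lower with normexp or with probes above background on all 6 arrays. Receptors (reported as 2 higher and 1 lower) were 0 higher and 2 lower with the mean of a gene's kept probes, 1 higher and 0 lower with slide as a block, 2 lower with normexp and 2 lower with the replicate block. Same-numbered samples did not deviate together (correlations of 0.02, -0.02 and 0.06 over genes), so no pairing by replicate number was seen in the values. These correlations cannot show whether same-numbered samples were handled together. The replicate block gave 509 genes higher and 469 lower at unadjusted p under 0.05. Leaving out each array in turn gave 0 to 2 ligands higher, 0 to 2 lower, 1 to 4 receptors higher and 0 to 2 lower, a ligand median from -0.27 to 0.00 and a receptor median from -0.02 to 0.12. Ligands higher were 0 without vehicle 1, vehicle 3, DMBA 1 or DMBA 3 and 2 without vehicle 2. Ligands lower were 0 without vehicle 2 or DMBA 3 and 2 without vehicle 3 or DMBA 1. Receptors higher were 1 without vehicle 1 and 4 without DMBA 3, and receptors lower 0 without vehicle 1 or vehicle 2 and 2 without DMBA 1. Among single genes, leaving out an array moved Il2rg between 0.13 and 2.51, Il17b between -2.06 and -0.55 and Il1bos between -2.87 and -0.56. Genes close to background cannot be resolved at these signals.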
